A study of Mus musculus with 12 samples.

Results

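Irf8 and Irf4 encode a pair of related transcription factors, and their transcripts were followed here across 5 sorted populations of dendritic cells (DCs) and DC progenitors of the mouse. The genes were taken by symbol: 2 of the 22184 genes tested, covered by 3 probe sets of the array. Irf8 had 2 probe sets and Irf4 had 1. The Irf8 probe set with the higher mean over all arrays served as the main value, and the other is reported beside it. Irf8 was 11.4-fold lower in CD172a DC than in CD24 DC of the spleen, while the bone marrow progenitors of these lineages differed by 0.15 ± 0.26 log2 units in Irf8 (standard error) and 4.43-fold in Irf4.

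Interferon regulatory factors bind DNA through a shared domain that reads GAAA repeats. IRF8 and IRF4 bind most sites only together with a partner, either an ETS factor such as PU.1 or an AP-1 factor of the BATF family. In the spleen, IRF8 is needed for the classical DC type 1 (cDC1), marked by CD24 and CD8 and known for cross-presentation, and IRF4 for many functions of the classical DC type 2 (cDC2), marked by CD172a. Commitment to each fate is thought to begin in bone marrow, below the common DC progenitor (CDP).

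All cells came from Zbtb46GFP/+ mice, which carry a green fluorescent reporter at 1 allele of Zbtb46, a classical DC factor, so every group shares that allele. The strain was C57Bl/6, the mice were unchallenged, and their age is not stated. Tissue of 8 to 10 littermates was sorted to a purity above 95%, and whether each array had its own mice or pool was not clear. P-values therefore cover no more than the spread among these arrays, and that spread may be technical. From bone marrow came CDPs (n = 3), which were lineage-negative and had CD117 at an intermediate level, CD135 and CD115, but neither CD11c nor MHC class II. The pre-CD8 and pre-CD4 progenitors were also lineage-negative and CD135-positive. The pre-CD8 progenitors (n = 2) were CD11c-positive with intermediate MHC class II and without Siglec H. The pre-CD4 progenitors (n = 2) had low CD117, CD115 and CD11c, and lacked MHC class II on the surface. From spleen came CD24 DC (n = 3), taken as CD11c-positive, CD24-positive and CD172a-negative, and CD172a DC (n = 2), taken as CD11c-, MHC class II- and CD172a-positive. The label gives CD24 DC as MHC class II-negative, yet their H2-Ab1 level was 12.19 ± 0.15 (log2, SD, n = 3), against 11.92 ± 0.19 in CD172a DC. Sirpa, which encodes CD172a, followed the gates, at 9.34 and 9.36 in CD172a DC and from 5.71 to 6.03 in CD24 DC. In pre-CD4, H2-Ab1 read 8.17 and 10.20, above the 6.59 ± 0.16 of CDP although both gates lacked MHC class II, and Itgax, which encodes CD11c, had a mean of 9.60 against 7.97 in pre-CD8, although the gates gave low CD11c in pre-CD4.

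The promoters of both genes are shown because Irf8 starts at 2 annotated places. Sequence outside these windows, such as distal control elements, was not searched. Sequences are those of RefSeq on the mouse build GRCm38.p6, on the plus strand, from 250 bases before to 50 bases after the annotated start. Irf8 lies on chromosome 8 from 120736358 to 120756694 and Irf4 on chromosome 13 from 30749233 to 30766981. Capitals mark a match to the gamma-activated sequence TTCNNNGAA, which STAT factors bind, or to the TATA box TATAAA.
Irf8 start 1, chr8:120736108-120736407: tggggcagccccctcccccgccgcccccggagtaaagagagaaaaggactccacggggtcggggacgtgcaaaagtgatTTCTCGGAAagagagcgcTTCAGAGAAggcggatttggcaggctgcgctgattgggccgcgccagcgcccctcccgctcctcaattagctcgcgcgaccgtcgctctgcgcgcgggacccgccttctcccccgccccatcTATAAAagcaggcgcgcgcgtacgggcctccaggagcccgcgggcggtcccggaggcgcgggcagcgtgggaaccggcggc
Irf8 start 2, chr8:120738389-120738688: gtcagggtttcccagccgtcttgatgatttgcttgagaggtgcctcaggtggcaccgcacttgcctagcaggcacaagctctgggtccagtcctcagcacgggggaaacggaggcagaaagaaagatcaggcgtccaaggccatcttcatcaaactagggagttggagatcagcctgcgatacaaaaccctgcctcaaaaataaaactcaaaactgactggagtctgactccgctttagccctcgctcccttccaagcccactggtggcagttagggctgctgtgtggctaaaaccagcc
Irf4, chr13:30748983-30749282: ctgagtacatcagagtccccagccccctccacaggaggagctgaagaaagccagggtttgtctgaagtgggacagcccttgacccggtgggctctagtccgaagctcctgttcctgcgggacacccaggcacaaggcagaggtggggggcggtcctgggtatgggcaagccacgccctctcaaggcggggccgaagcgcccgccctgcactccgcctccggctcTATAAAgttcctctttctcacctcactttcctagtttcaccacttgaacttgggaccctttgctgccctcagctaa
Counted from the annotated start, the first Irf8 promoter held TTCNNNGAA at positions -171 and -153 and TATAAA at -31, by the first base of each match. In the Irf4 promoter, TATAAA lay at -26. The second Irf8 promoter held neither, and its GC content was 54.7%, against 70% at the first start and 61% at Irf4. Both strands were searched, and matches to different motifs were counted even where they overlapped. TTCNNNGAA was found in 8.3% and TATAAA in 13.6% of all 32851 promoters of the same length. In the 3 windows shown there was no match to the interferon-stimulated response element, GAAA then any 2 bases then GAAA (3.44% of all promoters), or to the ETS-IRF element, GGAA then any 2 bases then GAAA (2.72%). Nor was there a match to the AP-1 site TGANTCA (7.81%) or to the AP-1-IRF elements, GAAA joined to TGANTCA (0.125%) and TGANTCA then any 4 bases then GAAA (0.119%), both of which contain the AP-1 site. The ETS-IRF element was searched in the order given only, and the reverse order, GAAA then any 2 bases then GGAA, was not searched. A match is a match of letters, and no binding was measured.

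Irf8 was high in every population except CD172a DC. On the main probe set the deposited log2 values were 11.53, 11.51 and 11.44 in CDP, 12.16 and 12.12 in pre-CD8, 12.05 and 11.92 in pre-CD4, 11.88, 12.15 and 11.68 in CD24 DC, and 7.97 and 8.80 in CD172a DC. Both CD172a DC arrays lay far below the other 10 arrays, which kept within a narrow band. The highest value of any probe set ran from 12.85 to 13.09 over the arrays, so that band lay near the top of the scale. Whether differences are flattened there was not tested. Group means ± SD were 11.49 ± 0.04 in CDP, 12.14 ± 0.03 in pre-CD8, 11.99 ± 0.09 in pre-CD4, 11.90 ± 0.24 in CD24 DC and 8.39 ± 0.58 in CD172a DC. Ordered from high to low, pre-CD8, pre-CD4, CD24 DC and CDP came before CD172a DC. Among neighbours in that order, the difference between CDP and CD172a DC was the only one called. The pre-CD4 and CD24 DC arrays overlapped, while those of pre-CD8 and pre-CD4 and those of CD24 DC and CDP did not, as for 33.9% and 37.6% of all genes in those pairs. Arrays of a pair did not overlap for 27% of all genes in CD24 DC against CD172a DC, 60.5% in CD172a DC against pre-CD4, 58.7% in CD172a DC against CDP and 54.3% in CD172a DC against pre-CD8. In sorted bulk RNA, fewer cells with the transcript and less RNA per cell cannot be told apart.

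**Figure D1:**
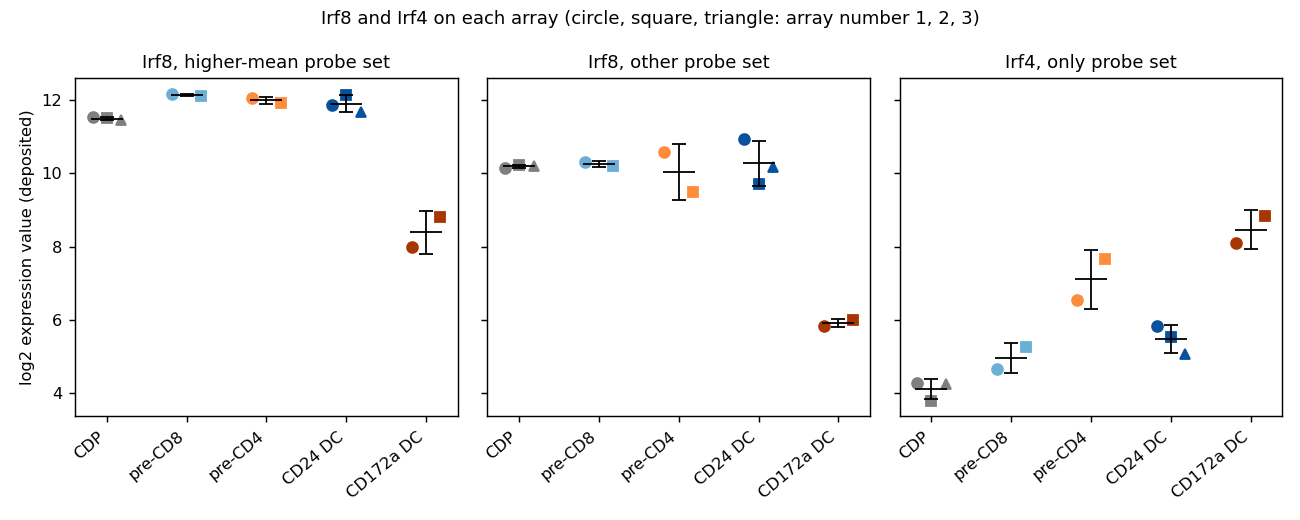
Deposited log2 expression values (y axis) of both Irf8 probe sets and of Irf4 on each of the 12 arrays, by sorted population (x axis). Points are arrays, with the array number as the shape, and bars are the group mean and SD. Irf8 of CD172a DC lies below every other array on both probe sets, and Irf4 of pre-CD4 and CD172a DC lies above every array of the other 3 populations.

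Each pair of populations was compared with limma in a single fit, with 0.05 as the threshold for calling a gene on its p adjusted over all genes. Irf8 was called in 4 of the 10 pairs, all of them with CD172a DC. It was 3.51 ± 0.24 higher (log2, standard error) in CD24 DC than in CD172a DC, an 11.4-fold difference with a 95% interval of 8.00 to 16.3 (adjusted p = 2.43e-06), in a comparison that called 5.59% of all genes. CD172a DC also stood 3.60 ± 0.26 below pre-CD4, the progenitor of the same lineage, which is 12.1-fold (adjusted p = 2.22e-06, 12.7% of all genes called). Against CDP it was 8.61-fold lower (adjusted p = 1.71e-06, 22.8% called), and against pre-CD8 13.5-fold lower (adjusted p = 2.47e-06, 9.41% called). All 4 of these calls held in each of the alternative settings tried.

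No difference in Irf8 was called among the other 4 populations. The difference of pre-CD8 from pre-CD4 was 0.15 ± 0.26 with a 95% interval from -0.41 to 0.72 (adjusted p = 1.00), where 0.703% of all genes were called, so a difference of the size seen in spleen lies outside this interval. Pre-CD8 exceeded CDP by 0.65 ± 0.24 (interval 0.13 to 1.16), with every pre-CD8 array above every CDP array, but the call was not reached (adjusted p = 0.178, 4.76% of all genes called). In that comparison 36.1% of all genes had groups that did not overlap, and 36.5% in pre-CD4 against CDP, where Irf8 did not overlap either. Pre-CD4 exceeded CDP by 0.49 ± 0.24 (adjusted p = 0.365, 4.54% called). CD24 DC differed from pre-CD8, its progenitor, by -0.24 ± 0.24 (interval -0.75 to 0.28, adjusted p = 0.675, 6.31% called), from CDP by 0.41 ± 0.21 (adjusted p = 0.198, 21.1% called) and from pre-CD4 by -0.09 ± 0.24 (adjusted p = 0.864, 11.4% called).

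The other Irf8 probe set was also lowest in CD172a DC, with no difference called among the other populations. Its log2 values were 10.15, 10.23 and 10.20 in CDP, 10.30 and 10.20 in pre-CD8, 10.58 and 9.49 in pre-CD4, 10.93, 9.71 and 10.18 in CD24 DC, and 5.84 and 5.99 in CD172a DC. Again the CD172a DC arrays stood alone, while the pre-CD4 and the CD24 DC arrays spread over more than the gap between the remaining groups. With every probe set tested as its own row, CD24 DC exceeded CD172a DC by 4.35 ± 0.34 or 20.5-fold (limma, adjusted p = 9.25e-06). CD172a DC lay 4.12 ± 0.37 below pre-CD4 (adjusted p = 1.23e-05). Pre-CD8 differed from CDP by 0.05 ± 0.34 (adjusted p = 0.974), so the small excess of pre-CD8 over CDP appeared on the main probe set alone, and it was called on neither.

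Irf4 was highest in the cDC2 lineage, in pre-CD4 and CD172a DC, and was higher in CD24 DC than in CDP. Its log2 values were 4.27, 3.78 and 4.24 in CDP, 4.66 and 5.25 in pre-CD8, 6.53 and 7.67 in pre-CD4, 5.84, 5.52 and 5.07 in CD24 DC, and 8.09 and 8.84 in CD172a DC. The CDP values lay below the median of all probe sets on every array (4.89 to 5.24). With the background level unknown, the size of the Irf4 folds against CDP is uncertain. Every pre-CD4 and CD172a DC array was above every array of the other 3 populations, and only pre-CD8 and CD24 DC overlapped. Groups free of overlap made up 37.6% of all genes in CD24 DC against CDP, 36.1% in CD24 DC against pre-CD4, 33.9% in pre-CD8 against pre-CD4 and 28.8% in CD24 DC against pre-CD8. Group means ± SD were 4.10 ± 0.27 in CDP, 4.95 ± 0.41 in pre-CD8, 5.47 ± 0.39 in CD24 DC, 7.10 ± 0.80 in pre-CD4 and 8.46 ± 0.53 in CD172a DC. In this ascending order CDP and pre-CD8 did not differ beyond the call threshold, nor did pre-CD8 and CD24 DC, whereas CD24 DC and pre-CD4 did, as did pre-CD4 and CD172a DC.

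Of the 10 pairs, 8 were called for Irf4, and the percentage of all genes called in each pair is that given above for Irf8. Pre-CD4 exceeded CDP by 3.00 ± 0.35, or 8.02-fold (adjusted p = 0.000306), and pre-CD8 exceeded CDP by 0.86 ± 0.35 (interval 0.09 to 1.62, adjusted p = 0.247), which was not called. Pre-CD8 minus pre-CD4 was -2.15 ± 0.39 (95% interval -2.98 to -1.31, adjusted p = 0.0191), or 4.43-fold. This call was lost without pre-CD4 array 2 (-1.58, adjusted p = 0.225), pre-CD8 array 1 (-1.86, adjusted p = 0.166) or pre-CD8 array 2 (-2.44, 0.0641), and in a fit of those 4 arrays alone (-2.15, 0.211). The direction was kept each time, and both pre-CD4 arrays were above both pre-CD8 arrays.

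In spleen, Irf4 was lower in CD24 DC than in CD172a DC by a difference of -2.99 ± 0.35, or 7.95-fold (adjusted p = 0.000206). CD172a DC exceeded pre-CD4 by 1.36 ± 0.39, or 2.57-fold (adjusted p = 0.0343). That call was lost without CD172a DC array 2 (0.99, adjusted p = 0.22), CD24 DC array 2 (1.36, 0.051) or pre-CD4 array 1 (0.79, 0.378), and in a fit of the compared groups only (1.36, 0.0505). CD172a DC exceeded CDP by 4.37 ± 0.35, or 20.6-fold (adjusted p = 2.54e-06), and pre-CD8 by 11.4-fold (adjusted p = 8.76e-05). CD24 DC exceeded CDP by 1.37 ± 0.32, or 2.59-fold (adjusted p = 0.00677), and differed from pre-CD8 by 0.52 ± 0.35 (interval -0.24 to 1.28, adjusted p = 0.508). CD24 DC lay below pre-CD4 by a difference of -1.63 ± 0.35, or 3.09-fold (adjusted p = 0.00752), which was -1.06 and not called without pre-CD4 array 2 (adjusted p = 0.131).

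**Figure D2:**
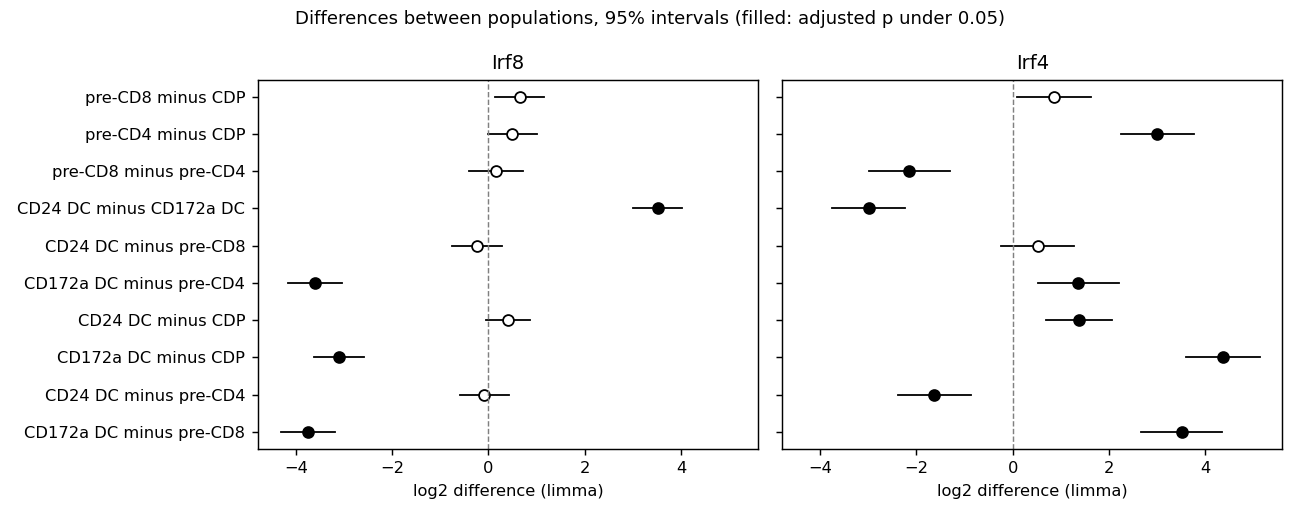
Log2 differences between populations (x axis) for the 10 pairs (y axis), from limma, with 95% intervals; filled points have an adjusted p under 0.05. For Irf8 the 4 filled points are the pairs with CD172a DC, and for Irf4 8 of 10 points are filled.

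Whether the lineages differed by the same amount at each stage was tested as the difference of differences. Both progenitors came from marrow and both mature populations from spleen, so stage and tissue cannot be told apart. The same holds for every comparison of a progenitor with a mature population. For Irf8 the lineage difference was 3.51 in spleen and 0.15 in marrow, and the gap between them, 3.36 ± 0.35, was called (95% interval 2.60 to 4.12, adjusted p = 0.000485, 1.03% of all genes called). For Irf4 it was -2.99 in spleen and -2.15 in marrow, and the gap of -0.84 ± 0.52 was not called (interval -1.98 to 0.29, adjusted p = 0.689). Averaged over the stages, the CD24 and pre-CD8 arrays exceeded the CD172a and pre-CD4 arrays by 1.83 in Irf8 and differed by -2.57 in Irf4. An exact permutation of lineage within stage (5 against 4 arrays, 60 splits, two-sided) gave p = 0.0167 for each, the smallest p it allows, and 0.0167 after adjustment over 3 tests. The third test, of the distance described below, is the difference of the other 2 and not separate from them. Arrays did not overlap for 33.9% of all genes in the marrow pair and 27% in the spleen pair. The share of all genes that reach this p was not computed. For Irf8 the average combines a difference of 0.15 in marrow with 3.51 in spleen. With both Irf8 probe sets averaged, its value was 2.06 (exact permutation p = 0.05).

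The distance between the transcripts was followed from array to array, its absolute size having no meaning because the probe sets differ. Irf8 minus Irf4 on the log2 scale was 7.26, 7.73 and 7.20 in CDP, 7.50 and 6.87 in pre-CD8, 6.04, 6.63 and 6.61 in CD24 DC, 5.52 and 4.25 in pre-CD4, and -0.12 and -0.04 in CD172a DC. The CDP and pre-CD8 arrays overlapped, the CD24 DC arrays lay just under them, the pre-CD4 arrays lower still, and the CD172a DC arrays far below all. Mean distances ± SD were 7.40 ± 0.29, 7.19 ± 0.44, 6.43 ± 0.34, 4.89 ± 0.90 and -0.08 ± 0.06 in that order. Against CDP, Irf4 was called higher in pre-CD4 and Irf8 was not called, and in CD172a DC both genes were called. Over the stages the lineages differed by 4.40 in this distance (exact permutation p = 0.0167, the smallest possible).

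**Figure D3:**
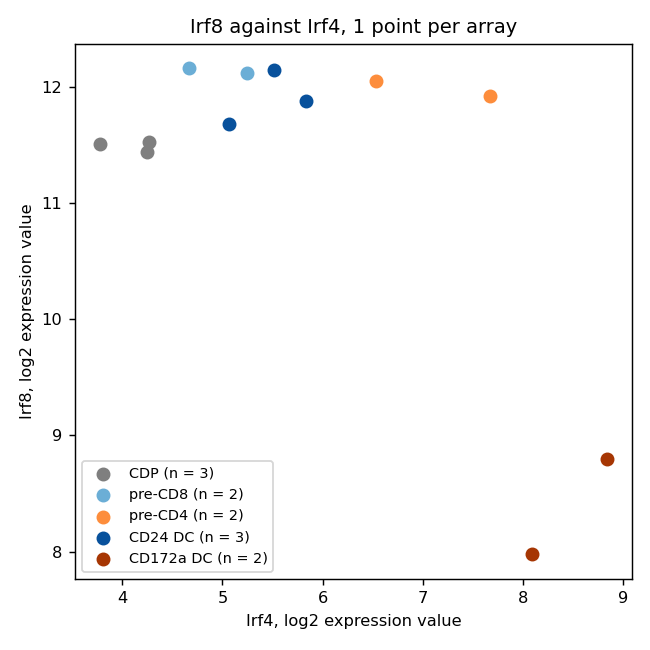
Irf8 (y axis, log2 value, main probe set) against Irf4 (x axis, log2 value), with 1 point per array coloured by population. The pre-CD4 points lie to the right of the pre-CD8 and CD24 DC points at about the same height, and the CD172a DC points lie lower, at Irf8 values of 7.97 and 8.80.

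Of the interferon regulatory factor family, 7 genes were measured. Irf4 was the only 1 of the 7 called between pre-CD8 and pre-CD4, where 0.703% of all genes were called. Irf8 and Irf4 were the only ones called between CD24 DC and CD172a DC (5.59% of all genes called). Irf7, a driver of type I interferon production, was lowest in CDP, at 5.44 ± 0.22, and stood at 7.46 ± 0.22 in pre-CD8, 7.30 ± 0.06 in pre-CD4, 7.57 ± 0.62 in CD24 DC and 7.27 ± 0.27 in CD172a DC. Irf7 exceeded CDP in all 4 (by 2.02 ± 0.30 in pre-CD8, adjusted p = 0.00124, and by 1.86 ± 0.30 in pre-CD4, adjusted p = 0.00288), and its difference between pre-CD8 and pre-CD4 was 0.16 ± 0.33. Irf2, which competes with Irf1 for interferon response sites, exceeded CDP by 0.69 ± 0.18 in CD24 DC and by 0.73 ± 0.21 in CD172a DC, and Irf1 exceeded CDP by 0.56 ± 0.17 in CD24 DC. The calls of Irf1 in CD24 DC and of Irf2 in both were lost without some single arrays, CDP array 2 or 3 among them in each case (adjusted p of Irf1 0.0643 and 0.104, of Irf2 0.0661 and 0.051 in CD24 DC and 0.0657 and 0.0527 in CD172a DC). Irf3, a sensor-activated factor present in most cells, and Irf9, the DNA-binding subunit of the interferon-activated complex ISGF3, were called in no pair. Against CDP, 4 of 7 family members were higher in CD24 DC (8.3% of all genes), a count of 2 without CDP array 2 or 3, and 3 were higher and 1 lower in CD172a DC (8.68% and 14.2% of all genes).

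The DNA-binding partners of both factors were then described, all 12 listed genes having been measured. Between pre-CD8 and pre-CD4, 1 was higher and 1 lower (0.383% and 0.32% of all genes), with a median difference of -0.07 against 0.01 over all genes. Batf3, the AP-1 partner of IRF8 at cDC1 genes, had a level of 9.50 ± 0.37 in pre-CD8 and 5.93 ± 0.32 in pre-CD4, a difference of 3.58 ± 0.45 (adjusted p = 0.00145). Spib, an ETS factor that can bind with either IRF, showed the opposite, 4.97 ± 0.09 and 8.57 ± 0.38, a difference of -3.60 ± 0.24 (adjusted p = 8.45e-06). Batf3 had a level of 9.34 ± 0.38 in CD24 DC and 8.24 ± 1.15 in CD172a DC, where the arrays read 7.42 and 9.06, and the difference of 1.10 ± 0.41 was not called (adjusted p = 0.173). Batf3 was 2.31 ± 0.45 higher in CD172a DC than in pre-CD4 (adjusted p = 0.0039), and 1.498 higher without CD172a DC array 2. In the same pair Irf8 was lower in CD172a DC. Spib was the 1 partner called between the mature populations, at -1.75 ± 0.22 (adjusted p = 0.000332), where 5.59% of all genes were called. In addition, 1 more was called without CD24 DC array 1 or CD24 DC array 3. Spi1, which encodes PU.1, differed by -0.34 ± 0.20 between the progenitors and by -0.27 ± 0.18 between the mature DCs, neither called. Batf, the partner of IRF4 in lymphocytes and DCs, differed by 0.19 ± 0.30 and 0.67 ± 0.27, also not called. Its mean was lowest in CD172a DC, at 5.81 ± 0.20, and was called lower than the 6.78 ± 0.14 of pre-CD4 (12.7% of all genes called). That call was lost with quantile normalization (-0.89, adjusted p = 0.0526). Batf was also called lower in CD172a DC than in CDP and pre-CD8 (22.8% and 9.41% of all genes called). Neither call held in every fit with 1 array left out.

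Regulators of Irf8 and of the cDC1 fate were measured for 15 of 17 listed genes, and the others were not analysed here. Between the progenitors 1 was higher in pre-CD8 and 2 were lower (0.383% and 0.32% of all genes), with a median of -0.10. Id2, which blocks E proteins and is required for cDC1, had group means of 10.10 in pre-CD8 and 5.43 in pre-CD4 (difference 4.67 ± 0.22, adjusted p = 2.77e-07), and 10.02 and 8.54 in CD24 DC and CD172a DC (1.48 ± 0.20, adjusted p = 0.000511). Its lineage difference was larger in marrow (spleen minus marrow -3.19, adjusted p = 0.000143), while that of Irf8 was larger in spleen. Tcf4, the E protein of plasmacytoid DCs, was lower in pre-CD8 than in pre-CD4 by a difference of -1.91 ± 0.21 (adjusted p = 0.000555). Bcl11a, a zinc finger factor of early lymphoid and DC progenitors, was lower too, at -1.30 ± 0.23 (adjusted p = 0.0168), a call lost when any 1 of the 4 arrays compared was left out (adjusted p 0.0734 to 0.19), which leaves Tcf4 as the 1 called lower. Between the mature populations 2 were higher and 1 was lower in CD24 DC (3.21% and 2.37% of all genes). The 1 lower was Bcl11a, at -0.997 ± 0.21 (adjusted p = 0.0121), a call lost without CD172a DC array 1 (adjusted p = 0.0704) or 2 (0.0962) and in a fit of these groups alone (0.0874), while 2 were lower without CD24 DC array 3. Nfil3, which acts upstream of Id2 and Zeb2 in CDPs, had group means of 6.97 in CDP, 6.40 in pre-CD8 and 5.48 in pre-CD4, and its difference of 0.92 ± 0.42 between the progenitors was not called (adjusted p = 0.881). Myb, a factor of immature haematopoietic cells, was higher in CD24 DC than in CD172a DC by 1.26 ± 0.23 (adjusted p = 0.00492), a call lost without CD172a DC array 2 (adjusted p = 0.0731).

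Many cDC1 genes that lie downstream of IRF8 were higher in pre-CD8 than in pre-CD4, between which Irf8 differed by 0.15 ± 0.26. Of 20 listed, 19 were measured, Clec9a not being analysed here. Between pre-CD8 and pre-CD4, 10 of 19 were higher and none lower (median difference 1.76), against 0.383% and 0.32% of all genes. The count was 6 with pre-CD4 array 1 or pre-CD8 array 2 left out. Between CD24 DC and CD172a DC, 19 of 19 were higher (median 2.74), against 3.21% of all genes. This count was also lower in some fits with a single array left out. The list holds genes long known as cDC1 markers and was chosen with earlier results of these data known. CD24 and CD172a, by which these cells were sorted, mark the same lineages, so these counts are a description and no independent test. Tlr3, a receptor for double-stranded RNA, had group means of 9.98 in pre-CD8 and 4.48 in pre-CD4, and differed by 5.51 ± 0.34 (adjusted p = 5.16e-06). Rab7b, a GTPase of late endosomes, differed by 4.02 ± 0.32 (adjusted p = 3.31e-05) and Cd36, a scavenger receptor, by 3.34 ± 0.37 (adjusted p = 0.000555). Xcr1, the cDC1 chemokine receptor, had group means of 6.96 in pre-CD8, 4.69 in pre-CD4, 10.10 in CD24 DC and 5.71 in CD172a DC, and differed by 4.39 ± 0.40 between the mature populations (adjusted p = 2.17e-05). Irf8 was 12.1-fold lower in CD172a DC of the spleen than in pre-CD4 of the marrow. Between these populations, 7 of the 19 were higher in CD172a DC and 1 was lower. The median difference was 0.92, with 4.7% and 8.02% of all genes higher and lower. The part of CD24 DC carried over in the sort of CD172a DC in these differences was not tested.

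Of genes of cDC2 and genes tied to IRF4 (20 of 20 measured), 1 was called between the progenitors, against 0.703% of all genes. This was Cd7, an immunoglobulin superfamily receptor, at -3.69 ± 0.55 (adjusted p = 0.00506), and the list's median was 0.09. The Cd7 call was lost if pre-CD4 array 1 (adjusted p = 0.0565) or pre-CD8 array 2 (0.0804) was dropped, and 2 genes were called lower if pre-CD4 array 2 was. Between the mature populations 6 were lower and 1 higher in CD24 DC (median -0.65), against 2.37% and 3.21% of all genes, and 2 were higher without CD24 DC array 3. The 6 were Clec4a4, Cd4, Dtx1, S100a4, Cd7 and Ltb. Clec4a4, a lectin receptor of CD4-positive cDC2 from a family of near-identical copies that makes its value uncertain, was lower by a difference of -5.23 ± 0.24 (adjusted p = 1.48e-07), with group means of 2.75 in pre-CD4 and 8.16 in CD172a DC. Ccl22, a chemokine gene of activated DCs, went the other way, at 3.16 ± 0.41 (adjusted p = 0.000435). Klf4, a factor needed for some cDC2, exceeded CDP by 2.25 ± 0.39 in pre-CD4 (adjusted p = 0.00468, and 0.0744 without pre-CD4 array 2), and its difference between the mature populations, -1.32 ± 0.39, was not called (adjusted p = 0.0749). Notch2, a receptor that cDC2 of the spleen depend on, and Relb, a subunit of NF-kappaB, were called neither between the progenitors (0.14 ± 0.22 and 0.36 ± 0.31) nor between the mature DCs (0.32 ± 0.21 and -0.12 ± 0.28).

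MHC class II presentation genes, which both factors are known to act on, were measured for 9 of 10 listed genes, Cd74 not being analysed here. Against CDP, 6 of 9 were higher in pre-CD8 (2.29% of all genes higher, 2.47% lower) and 4 in pre-CD4 (2.32% and 2.23%), with none lower. The first count was 3 without pre-CD8 array 1. The second was 2 on dropping CDP array 3 or pre-CD4 array 2, and 1 on dropping pre-CD4 array 1. Ciita, the transactivator of class II genes, had group means of 5.29 in CDP, 8.48 in pre-CD8, 6.48 in pre-CD4, 9.17 in CD24 DC and 8.90 in CD172a DC. It exceeded CDP by 3.20 ± 0.28 in pre-CD8 (adjusted p = 2.23e-05) and differed by 0.27 ± 0.28 between the mature populations (adjusted p = 0.767). These populations differed 11.4-fold in Irf8 and, in the opposite direction, 7.95-fold in Irf4. The part of either factor in the Ciita level was not tested. Between the progenitors, pre-CD8 had 2 of the 9 called higher and 1 called lower, against 0.383% and 0.32% of all genes. The 2 were Ciita, at 2.00 ± 0.30 (adjusted p = 0.00606), and H2-Ob, a chain of the class II modulator H2-O, at 1.71 ± 0.32 (adjusted p = 0.0268). Lgmn, an endosomal protease that processes antigen, went the other way, with group means of 6.67 in pre-CD8, 7.92 in pre-CD4, 6.96 in CD24 DC and 7.92 in CD172a DC. It was lower in pre-CD8 than in pre-CD4 by a difference of -1.25 ± 0.26 (adjusted p = 0.0488) and in CD24 DC than in CD172a DC by -0.96 ± 0.24 (adjusted p = 0.0313). Lgmn was the 1 of 9 called between the mature populations, against 5.59% of all genes. All 4 of these calls were lost in fits of the compared groups alone (adjusted p 0.109, 0.112, 0.271 and 0.0954 in the order given). With single arrays left out, Ciita lost its call without pre-CD4 array 1 (adjusted p = 0.103) or pre-CD8 array 2 (0.106), H2-Ob without any 1 of the 4 arrays compared (0.0623 to 0.276), and Lgmn in 9 of 12 fits between the progenitors (up to 0.493, and 0.0521 with every probe set tested) and in 5 of 12 between the mature populations (up to 0.218). Intermediate MHC class II was part of the pre-CD8 gate.

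**Figure D4:**
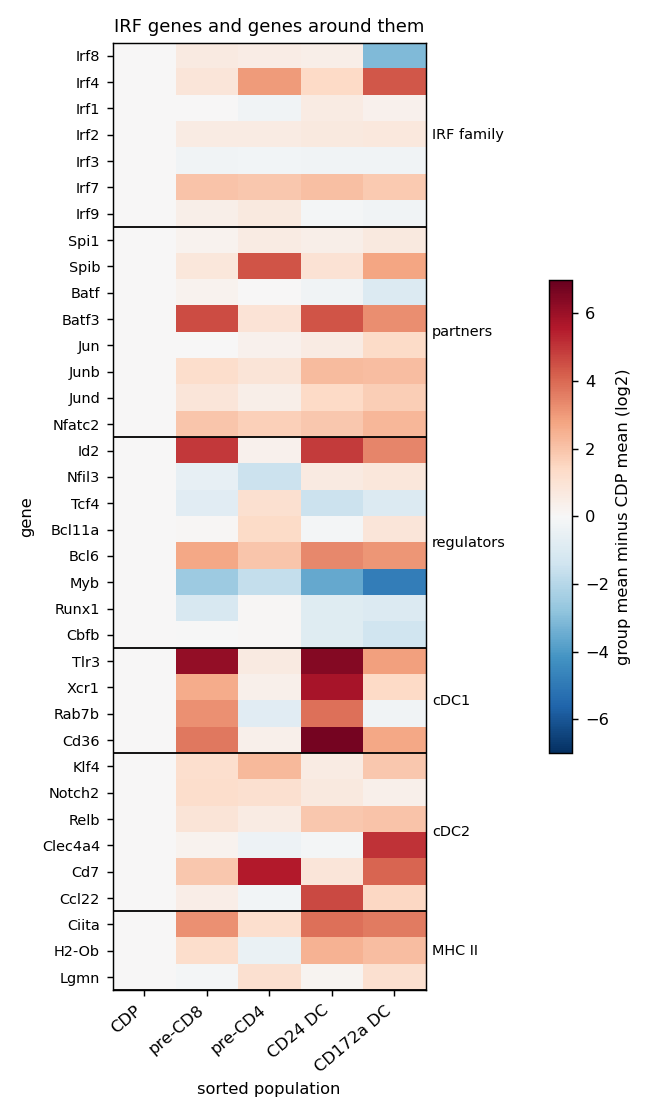
Group mean minus CDP mean (colour, log2) for the IRF genes and for named genes of the lists (rows) in each population (columns). Irf8 is blue only in CD172a DC, Irf4 is darkest in pre-CD4 and CD172a DC, and Id2 and Batf3 are high in pre-CD8, CD24 DC and CD172a DC.

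Markers of other cell types moved with some of these groups. The mean log2 level of 11 measured plasmacytoid DC markers ran from 7.46 to 7.78 on the pre-CD4 arrays and from 6.09 to 6.43 on all other arrays, and 5 of 11 were higher in pre-CD4 than in CDP (2.32% of all genes, and 3 of 11 without pre-CD4 array 1), Siglech by 2.12 ± 0.32 (adjusted p = 0.00172). Siglec H was gated out for pre-CD8 but not for pre-CD4. Neutrophil markers (10 measured) averaged 7.64 to 9.27 on CDP and 6.92 to 9.73 on pre-CD8 arrays, against 6.38 to 6.68 on pre-CD4 and 4.83 to 6.76 on spleen arrays. Their median difference between pre-CD8 and pre-CD4 was 1.67, with 1 of 10 called, Ctsg, which was higher in pre-CD8 (0.383% of all genes higher). That count ran from 0 to 3 with single arrays left out. Basophil and mast cell markers averaged 5.75 to 6.53 in pre-CD8 and 4.10 to 5.28 elsewhere. The 9 measured monocyte and macrophage markers averaged 7.56 to 7.99 in CDP, 6.98 to 7.25 in pre-CD8, 7.87 to 7.94 in pre-CD4, 6.22 to 6.53 in CD24 DC and 6.53 to 6.78 in CD172a DC. Between pre-CD8 and pre-CD4 none was higher and 2 were lower, F13a1 and Cx3cr1 (0.383% and 0.32% of all genes, median -0.78), and 0 or 1 was lower when any 1 of the 4 arrays compared was left out. In CD172a DC against pre-CD4, 1 was higher and 4 were lower (4.7% and 8.02% of all genes). Among these markers Adgre1 stood out in CD172a DC, with a group mean of 9.31 against 5.55 in pre-CD4 and 5.56 in CD24 DC. In CD24 DC against CD172a DC, 1 was higher (none without CD172a DC array 2) and 1 lower (3.21% and 2.37% of all genes). B cell and T cell markers averaged 4.49 to 5.46 on all arrays, and NK cell markers 4.76 to 4.95 in CD172a DC and at most 4.63 elsewhere. Single B cell markers stood higher, Ms4a1 with a group mean of 8.10 in CD24 DC and Cd22 with 8.19 in CD172a DC. In CD24 DC against CD172a DC, 2 of 11 B cell markers were higher and 1 lower (3.21% and 2.37% of all genes). The part of these cells in the Irf8 and Irf4 levels was not tested. Nor was that of CD24 DC carried over in the sort of CD172a DC, for these levels or for Batf3.

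The genes whose values ran most like each member over the 12 arrays were taken by Pearson's r from 5165 genes whose group means ranged over at least 1 log2 unit. These correlations describe 12 arrays that share 5 populations and 1 reporter genotype, so a gene that separates CD172a DC from the rest ranks high beside Irf8. For Irf8 they were Med28 (r = 0.957), Zfp367 (0.955), Pomp (0.954), Tiam1, Npc2 and Itpripl1 (0.951 each). Pomp, a proteasome assembly factor, had group means of 9.55 in CDP, 9.68 in pre-CD8, 9.36 in pre-CD4, 9.83 in CD24 DC and 7.82 in CD172a DC. The most opposed genes were Adgre1 (r = -0.968), which encodes a macrophage surface receptor, Sirpb1c (-0.966), of a family of near-identical copies, and the receptor kinase gene Axl (-0.964). Adgre1 had a group mean of 9.31 in CD172a DC and of 4.92 to 5.80 elsewhere. For Irf4 the most similar genes were Bach1 (r = 0.961), Dock4 (0.951), Rras2 (0.932), Cadm3 (0.927), Dab2 (0.926) and Fgr (0.924), and the most opposed were Entpd5 (-0.956), Nsun2 (-0.936) and Ppa1 (-0.915). Cadm3, a cell adhesion gene, had group means of 4.90 in CDP, 5.22 in pre-CD8, 5.20 in CD24 DC, 7.11 in pre-CD4 and 7.93 in CD172a DC, the order of Irf4 except for the swap of pre-CD8 and CD24 DC. By Spearman's rho, with ties sharing the better rank, none of the 6 ranked 6 or better for Irf8 and 5 did for Irf4, where 8 genes held those ranks, and over the 5 group means none did for either.

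**Figure D5:**
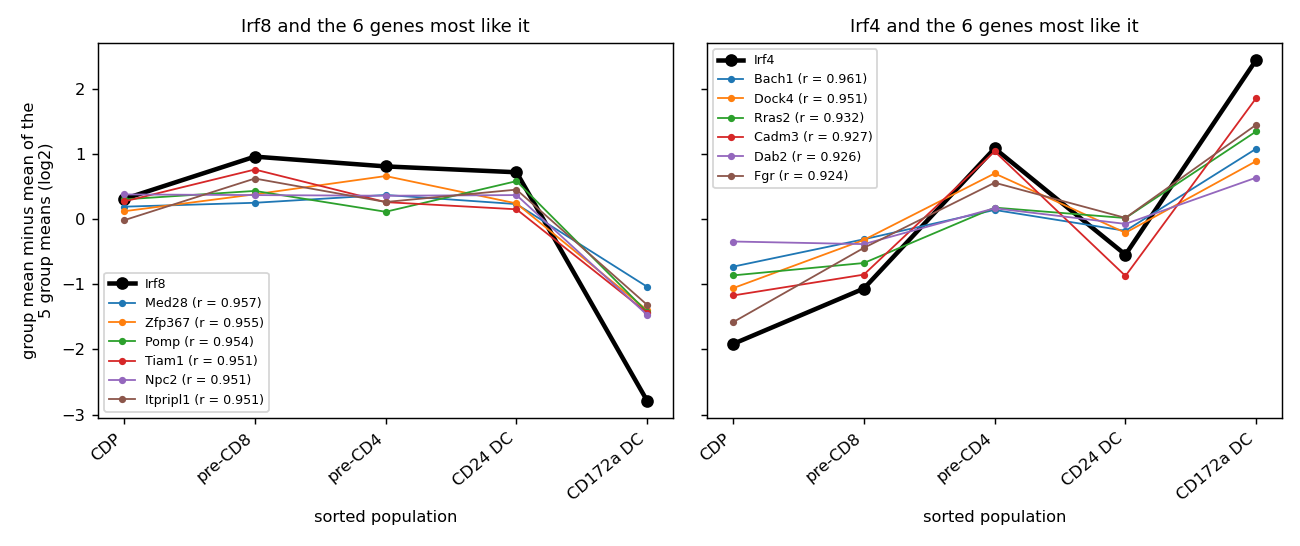
Group mean minus the mean of the 5 group means (y axis, log2) in each population (x axis) for Irf8 and Irf4 (black) and the 6 genes most like each by Pearson's r over 12 arrays (colours). Irf8 and its 6 neighbours drop in CD172a DC, and Irf4 and its neighbours have their highest mean there.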

How the data were processed

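RNA of 12 sorted samples was amplified with the NuGEN Ovation Pico kit, labelled with biotin and hybridised to Affymetrix arrays, per the labels' protocols. For every array the authors deposited log2 expression values, 1 for each probe set. How they corrected, summarized and normalized them is not given in the sources used here. Without detection calls the background level is unknown, and the number of arrays limits the precision. Array means ran from 5.28 to 5.34 and interquartile ranges from 2.10 to 2.86, and arrays of a group correlated at r = 0.925 to 0.987.

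Of 35145 probe sets, 23525 had 1 gene symbol in the platform annotation, 1810 several and 9810 none listed. Those with 1 symbol gave 22184 genes, and for the 1082 genes with several probe sets the one with the highest mean was used. Differences were fitted in R 4.3.3 with lmFit and eBayes of limma 3.58.1 (a mean for each of 5 groups, all 12 arrays), with two-sided p-values adjusted by the Benjamini-Hochberg method over all genes. The code was tested on simulated data. The members and gene lists were chosen with earlier results of these data known. Named were all measured genes of the IRF family and, from each list, certain core factors and the 3 called genes with the largest difference between the progenitors and between the mature populations, beside the 6 most similar and 3 most opposed genes. Alternatives were quantile normalization, leaving out genes with a mean below the 40th percentile, the mean of all probe sets, every probe set tested, the replicate number as a block, the compared groups alone, and each array left out. Counts of called list genes with each array left out were added after seeing the data.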

Additional observations from a re-analysis of the deposited data

Results flagged for a closer look

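Irf8 differed between the lineages in spleen by 3.51 (CD24 DC minus CD172a DC, log2) and in marrow by 0.15 (pre-CD8 minus pre-CD4), and the gap between these differences was 3.36 (limma, adjusted p = 0.000485). Clec4a4 had differences of -5.23 in spleen and 0.56 in marrow, a gap of -5.79 (adjusted p = 1.01e-05). Myb changed direction, at 1.26 in spleen and -0.87 in marrow, a gap of 2.13 (adjusted p = 0.00808, and 0.057 without pre-CD4 array 1).

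For 3 other genes the lineage difference was larger in marrow. Id2 differed by 1.48 in spleen and 4.67 in marrow, a gap of -3.19 (adjusted p = 0.000143). Spib differed by -1.75 and -3.60, a gap of 1.84 (adjusted p = 0.0162). Tcf4 differed by -0.58 and -1.91, a gap of 1.34 (adjusted p = 0.0456). The Spib call was lost without CD172a DC array 1 (adjusted p = 0.078), pre-CD4 array 2 (0.0862) or pre-CD8 array 1 (0.0678) and with quantile normalization (0.0608). The Tcf4 call was lost in 11 of the 12 fits that left out 1 array, all but the one without CD24 DC array 3 (adjusted p 0.0171 there, up to 0.206 in the others), and in a fit of the compared groups only (0.127).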

How the results depend on the processing

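Of 429 values of Irf8 and Irf4 under the alternatives, 408 kept their direction and their side of the threshold, 19 lost a call and 2 changed sign. The 2 belong to Irf8 in CD24 DC against pre-CD4, which was not called: it was 0.076 with the mean of all probe sets (adjusted p = 0.878) and 0.025 without CD24 DC array 3 (adjusted p = 0.98), where leaving out single arrays gave -0.21 to 0.025. The lineage difference of Irf8 averaged over stages was 2.06 with the mean of all probe sets (exact permutation p = 0.05). Fitted on the compared groups alone, Irf4 lost its call in pre-CD8 against pre-CD4 (-2.15, adjusted p = 0.211) and in CD172a DC against pre-CD4 (1.36, adjusted p = 0.0505). With single arrays left out, Irf4 ran from -2.72 to -1.58 in pre-CD8 against pre-CD4, from 0.79 to 1.93 in CD172a DC against pre-CD4 and from -2.20 to -1.06 in CD24 DC against pre-CD4. The stage-averaged differences ran from 1.63 to 2.04 for Irf8, from -2.85 to -2.29 for Irf4 and from 4.08 to 4.72 for their distance, with exact permutation p from 0.0333 to 0.0556, the latter being the smallest possible without a CD24 DC array. Without a CD24 DC array the permutation test could not pass 0.05, so its losses there were fixed by the number of arrays. The cause of the other losses was not tested, beyond the fewer samples each fit holds. The count of genes called over all genes moved from 34 to 194 between the progenitors (156 in the main setting) and from 556 to 1596 between the mature populations (1239). What the array numbers in the labels mark is not stated. Deviations of same-numbered arrays correlated at 0.102 to 0.421 over 13 pairs outside CD172a DC and at -0.162 to 0.0241 over 8 pairs with it. In groups of 2 arrays the deviations mirror each other, so these pairs are not all separate. The number was not part of the main fit, and what same-numbered arrays share was not tested. With the replicate number as a block, no call of either gene changed: Irf8 in CD24 DC against CD172a DC was 3.58 (adjusted p = 7.56e-06) and Irf4 in pre-CD8 against pre-CD4 was -2.15 (adjusted p = 0.0184).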

Other observations

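Some groups of 2 arrays had widely spread values. Between the pre-CD4 arrays 1 and 2, Irf4 read 6.53 and 7.67, the other Irf8 probe set 10.58 and 9.49, and H2-Ab1, whose protein the gate required to be absent, 8.17 and 10.20, while the main Irf8 probe set read 12.05 and 11.92. Between the CD172a DC arrays, Batf3 read 7.42 and 9.06, Irf8 7.97 and 8.80 and Irf4 8.09 and 8.84. Id2 read 5.40 and 5.46 on the pre-CD4 arrays and 10.06 and 10.14 on the pre-CD8 arrays.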
